A study of Homo sapiens with 24 samples.

Results

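Transcript levels were compared between 2 groups of illuminated human embryonic stem cell monocultures: 3 libraries of engineered cells (titled Cry2, called Cry2 light here) and 3 libraries of wild-type cells (wt light). These 6 libraries of 24 in the series were chosen by their titles. All cells were of the established line H9, grown in E8 medium, and both groups were kept for 48 h under light of 0.8 µW/mm². Engineered cells carried a fusion of Cry2, a photoreceptor from plants whose molecules cluster when blue light strikes them, with the cytoplasmic part of the Wnt co-receptor LRP6, followed by mCherry and accompanied by a puromycin resistance gene. The wild-type cells were not free of transgenes, since their libraries held reads of eGFP and of a neomycin resistance gene. A replicate was a pool of 2 to 3 wells of the same line, so the spread between replicates is that between cultures and not between independently derived lines. An effect of the construct under light can therefore not be told apart from any other difference between the engineered and wild-type lines. Beside them stand the same lines in monoculture in the dark (Cry2 dark and wt dark), and cells sorted from illuminated co-cultures by their mCherry (engineered) or GFP (wild type).

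In canonical Wnt signalling, a ligand brings Frizzled and LRP6 together at the membrane. The clustered tail of LRP6 then holds back the destruction complex of AXIN, APC and GSK3, so that beta-catenin builds up, enters the nucleus and acts with transcription factors of the TCF/LEF family. Its direct targets include inhibitors of the pathway itself, such as AXIN2, NKD1 and DKK1. In the embryo, Wnt signals induce the primitive streak, where epiblast cells lose their epithelial form and become mesoderm or endoderm, and the HOX genes are then switched on in order along each cluster.

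TCF/LEF factors bind the sequence CTTTGAT and, among close variants, CTTTGTT, which share their opening letters CTTTG. Both were searched on both strands in the 250 bases before the transcription start of RefSeq genes (build GRCh38.p14). These windows are shown for a TCF/LEF target (SP5), a streak regulator (MIXL1) and a secreted Wnt antagonist (DKK1), whose transcripts were all more than 1000-fold higher in Cry2 light. They are written 5′ to 3′ on the gene's own strand, which is the plus strand for all 3, with the matched letters in capitals. The SP5 window is chr2:170715087-170715336, with CTTTGAT 109 bases before the start. The MIXL1 window is chr1:226223414-226223663, with CTTTGAT 76 bases before the start, and it ends inside the gene as GENCODE draws it. The DKK1 window is chr10:52314031-52314280, with CTTTGTT 76 bases before the start.
SP5: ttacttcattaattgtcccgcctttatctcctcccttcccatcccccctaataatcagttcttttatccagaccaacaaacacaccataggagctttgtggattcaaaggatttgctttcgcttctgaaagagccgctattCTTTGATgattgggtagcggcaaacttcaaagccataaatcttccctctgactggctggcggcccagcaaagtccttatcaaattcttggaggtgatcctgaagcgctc
MIXL1: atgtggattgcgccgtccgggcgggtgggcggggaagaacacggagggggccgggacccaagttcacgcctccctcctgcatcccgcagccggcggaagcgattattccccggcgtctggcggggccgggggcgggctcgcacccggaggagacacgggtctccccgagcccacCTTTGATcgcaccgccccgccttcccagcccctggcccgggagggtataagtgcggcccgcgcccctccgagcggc
DKK1: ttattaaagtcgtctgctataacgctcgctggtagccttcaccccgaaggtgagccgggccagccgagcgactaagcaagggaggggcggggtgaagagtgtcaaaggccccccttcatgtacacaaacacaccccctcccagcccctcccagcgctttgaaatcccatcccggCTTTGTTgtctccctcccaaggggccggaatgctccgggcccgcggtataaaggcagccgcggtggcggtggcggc
Of all 35116 promoters in the table, of tested and untested genes alike, 6.6% held either sequence. The shares that follow take only the first promoter of each gene, so they are not to be set against that share. Among genes at least 2-fold higher in Cry2 light it was 4.5% (70 of 1557 with a promoter), among those at least 2-fold lower 4.61% (90 of 1951), and among the other tested genes 3.97% (378 of 9532). In the Wnt feedback list 1 of 13 members with a promoter held a match, in the TCF/LEF list 1 of 14 and in the streak list 1 of 9, and these were DKK1, SP5 and MIXL1. The matches are a description of the letters in these windows.

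The 6 libraries held 45763662 to 54707558 reads assigned to genes, with an RNA integrity number of 9.2 to 10. All values given are normalised read counts as deposited, that is, reads divided by a factor for each library, in which a read was worth 0.766 to 0.952 in these libraries. They are not corrected for gene length. By read counts wt light replicate 2 stood apart: per degree of freedom, chi-square was 51.6 and 42.6 against wt light replicates 1 and 3, while it was 5.40 between those and 8.80 to 10.8 among the Cry2 light libraries. The construct was read where the titles put it. The Cry2 fusion had 50531, 50614 and 47039 in Cry2 light, against 310.1, 218.9 and 286.1 in wt light. The fusion shares sequence with LRP6, so the low values in wt light need not come from the construct. The eGFP transcript had 2 reads over the Cry2 light libraries, against 12607, 13180 and 13318 in wt light, and puromycin resistance had 1926, 2257 and 2295 in Cry2 light and no reads in wt light. LRP6 itself (chromosome 12, 12116025 to 12267012, minus strand, GRCh38) had 14406, 14271 and 13373 in Cry2 light, against 3240, 1846 and 2849 in wt light. Reads of the gene and of the fusion cannot be told apart.

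Cry2 light and wt light differed in 60.9% of the genes tested. Of 19444 genes, 5749 (29.6%) were higher and 6086 (31.3%) lower in Cry2 light by limma, with an adjusted p under 0.05. At least 2-fold differences were found in 5476 genes (28.2%), of which 2380 (12.2%) were higher and 3096 (15.9%) lower. The median log2 difference over all tested genes was -0.02. Large differences were more often increases: 91 genes had a log2 difference of at least 8 and 10 genes of at most -8, while 1146 were at least 2 and 1706 at most -2. Without wt light replicate 2 the counts were 5718 higher and 6054 lower, and 2219 and 3038 with at least 2-fold. Because so many genes passed, the counts for each gene list below are to be read against 29.6% higher and 31.3% lower. A gene close to silent in all other monoculture groups could be tested only through Cry2 light, and so could only come out higher. DKK1, SP5, EVX1, MSGN1 and FOXC1 are such genes, so nothing is read from how many members of their lists were higher. In bulk RNA, fewer cells of a type and less RNA per cell cannot be told apart. The p-values measure the spread between cultures.

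**Figure D1:**
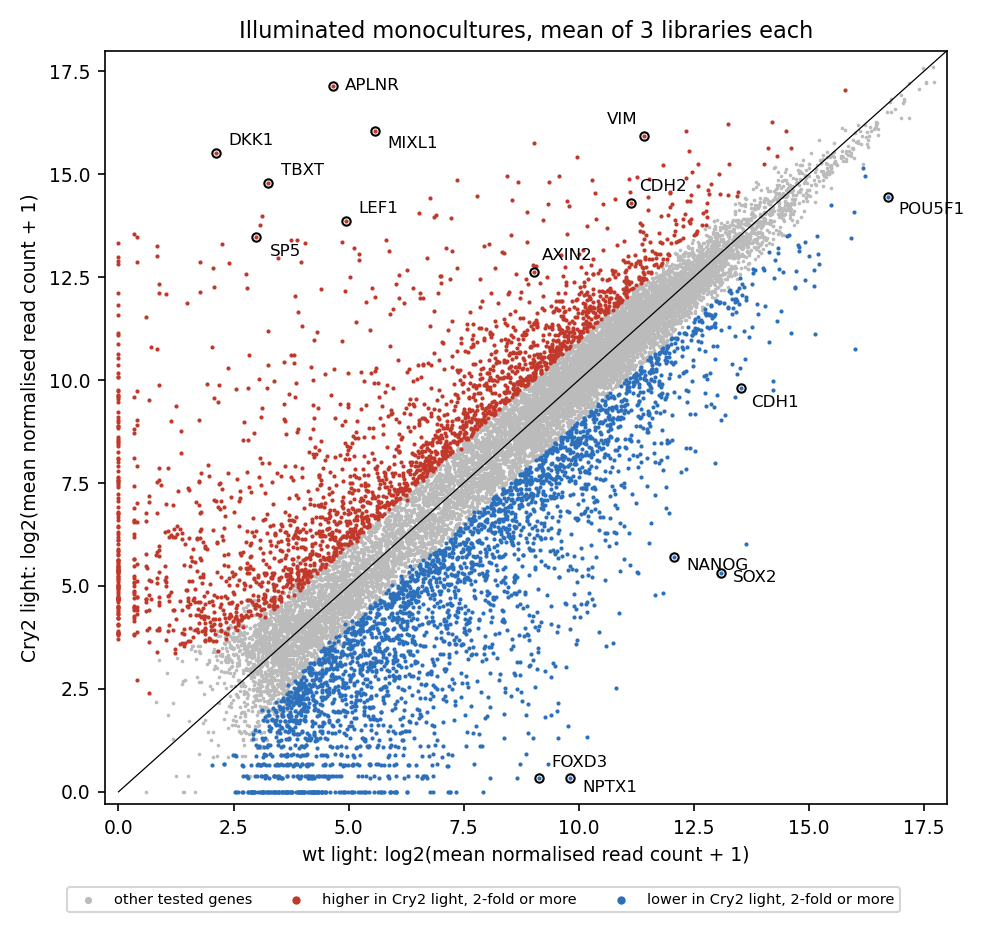
Mean normalised read count of each tested gene in wt light (horizontal axis, log2 scale after adding 1) and in Cry2 light (vertical axis, the same scale), with genes at least 2-fold higher or lower in colour. DKK1 and APLNR lie far above the diagonal, with means of 46682 and 144680 in Cry2 light against 3.33 and 24.2 in wt light, and NPTX1 and FOXD3 lie on the floor of Cry2 light.

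Feedback inhibitors and antagonists of the Wnt pathway were mostly higher in Cry2 light: 14 of 21 tested members were higher, 13 of them at least 2-fold, 5 were lower and 2 did not pass. Their median log2 difference was 1.48, against -0.02 for all tested genes. Members close to silent outside Cry2 light, such as DKK1, passed the minimum for testing through Cry2 light, so nothing is read from the count or the median. AXIN2, the scaffold of the destruction complex and a classical target of the pathway (chromosome 17, 65528563 to 65561647, minus strand), had 6480, 6329 and 6112 in Cry2 light, against 557, 496 and 503 in wt light. All 3 Cry2 light libraries lay far above all wt light libraries (12.2-fold, log2 difference 3.60 ± 0.09 SE, limma adjusted p = 4.60e-14). DKK1, a secreted inhibitor that binds LRP6 (chromosome 10, 52314296 to 52318042, plus strand), had 47602, 44414 and 48029 in Cry2 light, against 4.59, 3.81 and 1.60 in wt light. It was close to silent in wild-type cells and its log2 difference of 13.47 ± 0.47 was the largest of any named gene (limma adjusted p = 2.10e-12). DKK4, a relative of DKK1, had 920, 750 and 867 in Cry2 light and no reads in wt light, so that it was at least 1008-fold higher. NKD1, which acts on Dishevelled, had 59588, 56342 and 51801 in Cry2 light, against 550, 390 and 615 in wt light (108-fold). NOTUM, an extracellular enzyme that inactivates Wnt ligands by removing their lipid, was 53.1-fold higher (1131 ± 34.96 against 21.3 ± 7.82, SD, n = 3 each), and DACT1, another binder of Dishevelled, 23.7-fold higher (29790 ± 571 against 1256 ± 82.8).

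The 5 members that were lower were secreted antagonists and a DKK receptor. SFRP2, a secreted Frizzled-related protein, had 2251, 2277 and 2243 in Cry2 light, against 23570, 27532 and 24131 in wt light. Its groups were well separated in the opposite direction to AXIN2 (11.1-fold lower, log2 difference -3.47 ± 0.06, limma adjusted p = 2.42e-15). SFRP1 was 5.51-fold lower (4847 ± 124 against 26685 ± 2444), SFRP5 19.3-fold lower (6.94 ± 4.11 against 134 ± 13.8) and WIF1, which binds Wnt ligands, 11.2-fold lower (5.57 ± 3.78 against 62.4 ± 6.597). KREMEN2, a receptor for DKK proteins, was 3.99-fold lower (95.5 ± 19.6 against 381 ± 65.2). NKD2 (519 ± 37.1 against 576 ± 54.3) and DKK3 (1346 ± 38.5 against 1254 ± 47.5) did not pass.

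Among the TCF/LEF factors and their nuclear partners 9 of 15 were higher and 5 lower. SP5, a zinc finger factor induced by beta-catenin (chromosome 2, 170715351 to 170718078, plus strand), had 10882, 11818 and 11499 in Cry2 light, against 8.42, 11.4 and 0.799 in wt light (1657-fold, log2 difference 10.90 ± 0.81, limma adjusted p = 1.45e-08). LEF1, a beta-catenin partner that mostly activates (chromosome 4, 108047545 to 108168956, minus strand), had 14788, 15088 and 14708 in Cry2 light, against 32.9, 24.7 and 31.2 in wt light (502-fold). TCF7, of the same family, was 10.5-fold higher (4488 ± 271 against 428 ± 9.41). The family thus did not move together, since TCF7L1, known mainly as a repressor that holds back Wnt targets in embryonic stem cells, had 767, 809 and 821 in Cry2 light, against 7937, 8695 and 7944 in wt light (10.3-fold lower, log2 difference -3.36 ± 0.06, limma adjusted p = 1.73e-15). TCF7L2 was 1.53-fold lower (1110 ± 35.7 against 1702 ± 178). The Groucho-type co-repressors were split. TLE2 was 60.6-fold lower (6.37 ± 4.54 against 386 ± 20.8) and TLE1 6.29-fold lower (849 ± 108 against 5341 ± 214), while TLE3 and TLE4 were among the higher members. BCL9, a co-activator that links beta-catenin to the transcription machinery, did not pass (4617 ± 182 against 4548 ± 660). The transcript of beta-catenin itself, CTNNB1, named here after its value was seen, was 1.28-fold higher (35469 ± 854 against 27686 ± 2619, log2 difference 0.36 ± 0.06, limma adjusted p = 0.000175).

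The destruction complex and Dishevelled genes differed little. Of 12 members 7 were higher, 1 was lower and 4 did not pass, and none reached 2-fold. AMER1, which recruits AXIN to the membrane, was 1.68-fold higher (2538 ± 208 against 1507 ± 385), DVL2 1.54-fold higher (4756 ± 183 against 3095 ± 59.6) and APC 1.40-fold higher (1408 ± 92.3 against 1002 ± 341). APC did not pass with DESeq2 or with the 6 light libraries fitted alone. AXIN1 was 1.24-fold lower (2810 ± 115 against 3488 ± 116), and the kinase gene GSK3A (3055 ± 252 against 3007 ± 340) and DVL1 (3164 ± 168 against 3232 ± 161) did not pass. In contrast to its paralogue AXIN2, the AXIN1 transcript thus lay lower in Cry2 light.

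Wnt ligand genes were among those with large differences. Of 15 testable members of the ligand and secretion list 8 were higher, all at least 2-fold, 4 were lower and 3 did not pass. A ligand gene close to silent in the other groups could be tested only through Cry2 light, so nothing is read from the count. WNT3A, a canonical ligand of the streak, had 3026, 3582 and 3031 in Cry2 light, against 13.0, 13.3 and 15.2 in wt light (232-fold, log2 difference 7.76 ± 0.26, limma adjusted p = 1.02e-12). WNT8A had 4001, 3773 and 3558 in Cry2 light, against 4.59, 0 and 0.799 in wt light (2101-fold, with 7 reads over the wt light libraries). WNT5A, a ligand known mostly for non-canonical signalling, had 23594, 20296 and 21561 in Cry2 light, against 100.3, 102.8 and 120.7 in wt light (202-fold), and WNT5B was 59.4-fold higher (8991 ± 541 against 151 ± 13.5). WLS, the carrier that brings Wnt proteins to the cell surface, was 68.0-fold higher (9414 ± 285 against 138 ± 20.0). PORCN, the enzyme that adds their lipid, was 1.37-fold lower (520 ± 44.3 against 710 ± 47.9). WNT8B had no reads in Cry2 light, against 37.5, 22.8 and 58.3 in wt light, so it was at least 45.6-fold lower. WNT2B (14.7 ± 7.79 against 22.8 ± 11.2), WNT4 (45.1 ± 10.9 against 29.9 ± 7.50) and WNT9B (6.44 ± 5.03 against 1.07 ± 1.85) did not pass.

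Receptors were divided: 9 of 15 were higher and 3 lower. FZD10 had 5671, 6122 and 5741 in Cry2 light, against 25.3, 39.0 and 31.2 in wt light (184-fold, limma adjusted p = 2.79e-12). FZD5 went the other way, with 50.7, 50.2 and 16.9 in Cry2 light, against 2652, 2211 and 2581 in wt light (63.2-fold lower, limma adjusted p = 4.39e-11). The same opposition was seen between the WNT5A co-receptors. ROR2 was 12.2-fold higher (5614 ± 421 against 460 ± 36.9) and ROR1 32.0-fold lower (119 ± 9.42 against 3803 ± 1086). PTK7, a planar polarity co-receptor, was 3.98-fold higher (39269 ± 2096 against 9880 ± 295). FZD2 (3341 ± 214 against 3298 ± 65.8), FZD6 (391 ± 38.6 against 445 ± 91.5) and FZD8 (285 ± 34.3 against 325 ± 11.9) did not pass. RSPO3, a secreted amplifier of Wnt signals (chromosome 6, 127118604 to 127197765, plus strand), had 11578, 11192 and 11655 in Cry2 light and 1 read over the wt light libraries. LGR5, a receptor for R-spondins and itself a Wnt target, had 6857, 5517 and 6041 in Cry2 light, against 6.13, 1.90 and 9.59 in wt light. Of the other 5 members of this list, LGR4 (2064 ± 163 against 2713 ± 400), LGR6 (21.3 ± 7.17 against 83.0 ± 13.5) and RSPO2 (1 read over Cry2 light against 46 reads over wt light) were lower. RSPO4 (456 ± 24.2 against 432 ± 81.9) and RSPO1 (4.46 ± 5.56 against 5.65 ± 5.15) did not pass.

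**Figure D2:**
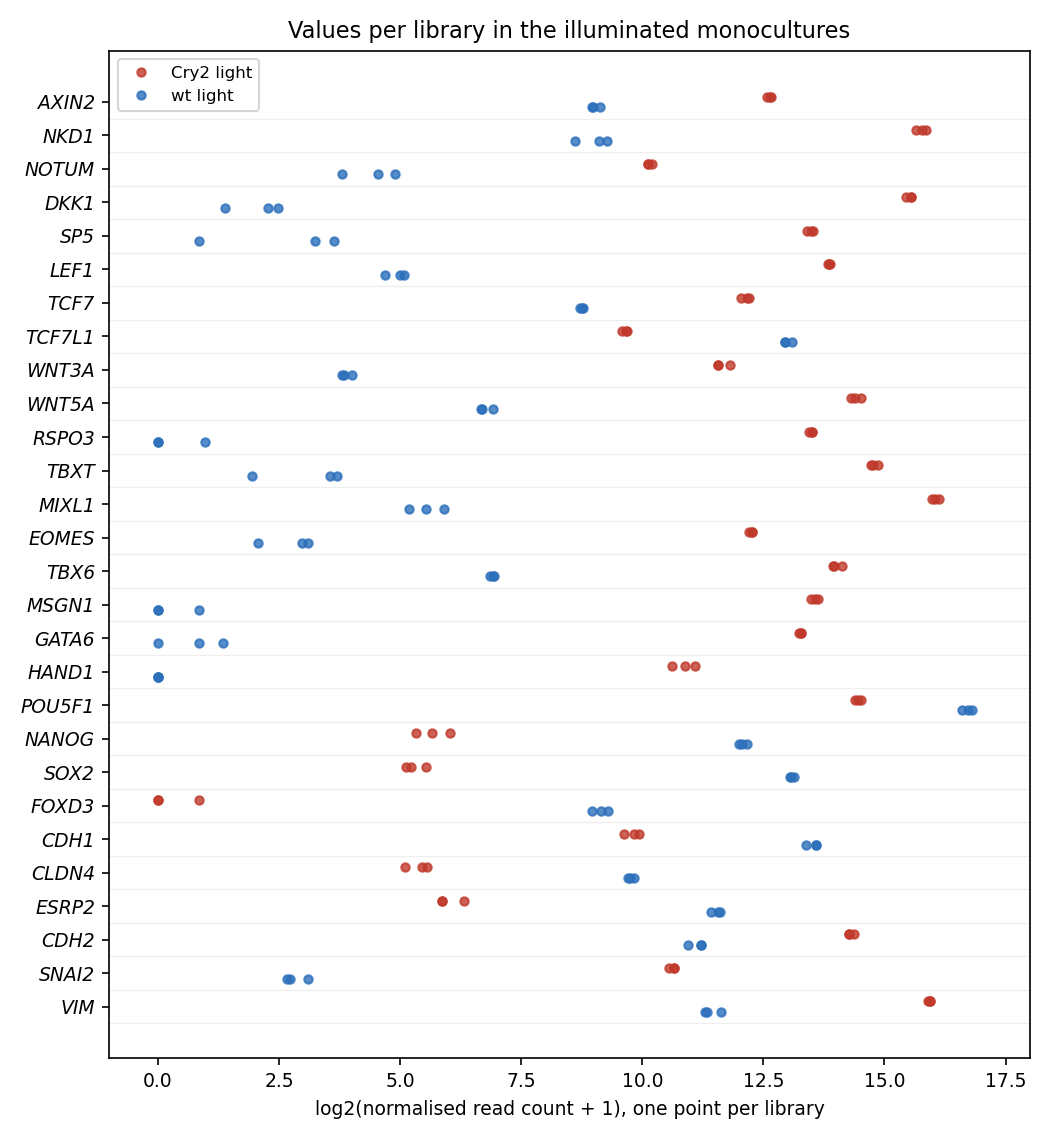
Normalised read count of 28 genes (log2 scale after adding 1), with a point for each of the 3 Cry2 light and the 3 wt light libraries. The groups do not overlap for any gene drawn; CLDN4 and VIM were chosen for drawing after their values were seen.

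Primitive streak genes were higher in 13 of 14 cases, all at least 2-fold, with a median log2 difference of 7.69. Members close to silent outside Cry2 light, such as EVX1 and EOMES, passed the minimum for testing through Cry2 light. Nothing is therefore read from the count or the median. TBXT, the brachyury factor that marks the streak (chromosome 6, 166157656 to 166168700, minus strand), had 27769, 30093 and 27110 in Cry2 light, against 10.7, 2.86 and 11.99 in wt light. MIXL1, a homeobox factor of the streak (chromosome 1, 226223618 to 226227054, plus strand), had 71118, 65082 and 68005 in Cry2 light, against 59.0, 45.7 and 35.2 in wt light. For both, the lowest Cry2 light library lay more than 1000-fold above the highest wt light library (TBXT log2 difference 11.72 ± 0.50, limma adjusted p = 2.12e-11, and MIXL1 10.51 ± 0.25, limma adjusted p = 2.00e-14). EVX1, a homeobox factor of the posterior streak, had 10349, 10340 and 10194 in Cry2 light and no reads in wt light (at least 12270-fold). EOMES, which acts in the anterior streak, had 4936, 4713 and 4939 in Cry2 light, against 6.89, 7.61 and 3.20 in wt light (824-fold), and FGF17 and LHX1 were 1714-fold and 785-fold higher. GSC, an organizer factor, stood at 892 ± 82.9 against 6.07 ± 3.62 (147-fold). NODAL, the ligand that patterns the streak, was the exception, with 433, 502 and 437 in Cry2 light, against 516, 623 and 578 in wt light (1.25-fold lower, log2 difference -0.32 ± 0.13, limma adjusted p = 0.0395). Its call was lost with the replicate number as a block, without a filter on low values, and when Cry2 light replicate 1 or 3 or wt light replicate 2 or 3 was left out.

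Paraxial mesoderm and segmentation clock genes were higher in 10 of 14 cases and lower in 3, with a median log2 difference of 4.63. MSGN1 and CDX1, close to silent outside Cry2 light, passed the minimum for testing through it, so nothing is read from the count or the median. MSGN1, a regulator of presomitic mesoderm, had 11415, 12600 and 12162 in Cry2 light and 1 read over the wt light libraries. TBX6, which directs cells to paraxial mesoderm, had 15694, 17972 and 15846 in Cry2 light, against 119.4, 115.2 and 121.5 in wt light (139-fold). The caudal homeobox genes split: CDX1 (7536 ± 470, with 1 read over wt light) and CDX2 (7454 ± 378 against 2.44 ± 2.74) were higher, while CDX4 was lower (4.59 ± 1.67 against 22.3 ± 11.8, limma adjusted p = 0.0103). HES7, an oscillator of the clock, was 320-fold higher (4220 ± 205 against 13.2 ± 7.05). TCF15, a factor of later somites, was 3.41-fold lower (150 ± 20.9 against 510 ± 120), NKX1-2, a factor of caudal progenitors, 1.49-fold lower (815 ± 106 against 1212 ± 28.5). RIPPLY2, of segment polarity, did not pass (43.6 ± 5.35 against 29.4 ± 7.62).

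Of 11 testable lateral and cardiac mesoderm genes 9 were higher. HAND2, TBX5 and TBX20 were below the minimum for testing. Members close to silent in wt light, such as GATA6, passed the minimum through Cry2 light, so nothing is read from the count. HAND1, a factor of lateral and extra-embryonic mesoderm, had 1893, 1560 and 2169 in Cry2 light and no reads in wt light (at least 2234-fold). GATA4 stood at 4540 ± 119 against 2.41 ± 1.53 (1880-fold). GATA6 (9814 ± 175) and TBX3 (4432 ± 268) had 3 reads each over the wt light libraries, and FOXF1 (769 ± 57.6) had 1 read. TNNT2, the cardiac troponin of contracting heart muscle, was lower, with 6.33, 8.10 and 3.55 in Cry2 light, against 140.1, 239.9 and 182.2 in wt light (31.3-fold, limma adjusted p = 5.14e-10). It was the 1 member of the list that was lower. The heart muscle genes MYL7, a myosin light chain (337 ± 19.9 against 30.3 ± 7.01, 11.1-fold), and MYH6, a myosin heavy chain (88.2 ± 12.1 against 12.2 ± 6.92, 7.25-fold), were higher, and were named after their values were seen. MEF2C, a muscle factor, did not pass (16.6 ± 4.83 against 11.7 ± 7.90).

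Definitive endoderm and organizer genes were mixed: 6 of 10 were higher and 3 lower. CXCR4, a chemokine receptor of migrating mesoderm and endoderm, had 9283, 9580 and 9329 in Cry2 light, against 49.8, 21.9 and 28.8 in wt light (281-fold). CER1, a secreted antagonist of NODAL, was 55.3-fold higher (2388 ± 135 against 43.2 ± 4.87) and the BMP antagonist CHRD 7.18-fold higher (283 ± 17.3 against 39.4 ± 20.1). FOXA2, the defining factor of endoderm, had 0.905, 2.43 and 0.887 in Cry2 light, against 43.6, 121.8 and 45.6 in wt light (49.97-fold lower, limma adjusted p = 7.55e-07), and it was already lower in Cry2 cells in the dark. SOX17, another such factor, was below the minimum for testing, with 7 reads over Cry2 light and 1 read over wt light. HHEX, a factor of anterior endoderm, did not pass (13.1 ± 4.17 against 5.58 ± 2.07).

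All 26 HOX genes that could be tested were higher in Cry2 light, each at least 2-fold (12.2% of all tested genes were). The count comes from 30 HOX genes in the table, of 39 listed. Their median log2 difference was 8.57, and most had no read in wt light, so a testable member had passed the minimum through Cry2 light and nothing is read from the count or the median. HOXB1, at the end of its cluster that is switched on earliest (chromosome 17, 48528526 to 48531001, minus strand), had 7467, 7866 and 7332 in Cry2 light and no reads in wt light (at least 9006-fold, log2 difference 12.88 ± 0.44, limma adjusted p = 1.69e-12).

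Per kilobase of exon, the levels in Cry2 light went down along the HOXB cluster. They were 3051 ± 112 for HOXB1, 1887 ± 76.0 for HOXB2, 978 ± 52.4 for HOXB3, 604 ± 5.02 for HOXB4 and 777 ± 34.5 for HOXB5. Further along they were 295 ± 22.0 for HOXB6, 125 ± 16.1 for HOXB7, 191 ± 3.49 for HOXB8, 178 ± 2.01 for HOXB9 and 11.6 ± 3.13 for HOXB13. HOXB5 and HOXB8 broke the order, and HOXB8 and HOXB9 did not overlap in their libraries by a small margin. In the HOXA cluster, HOXA2 to HOXA5 did not follow the order, with the lowest level at HOXA4 (20.2 per kilobase) and the highest at HOXA5 (306). HOXA9 to HOXA11 lay between 0.796 and 1.67, and HOXA13 stood at 5.07 ± 2.48. The HOXC and HOXD clusters were led by HOXC4 at 190 ± 12.6 and HOXD1 at 237 ± 7.42 per kilobase. HOX genes lie close together and some overlap on the same strand as annotated, so reads of neighbours may be shared. Among others, HOXA3 overlaps HOXA4 and HOXA5, HOXB3 overlaps HOXB4, HOXB5 and HOXB6, and HOXB7 overlaps HOXB8 and HOXB9. HOXA4, HOXA5, HOXB5 and HOXB8, which did not follow the order, are thus among the genes that overlap. HOX genes other than HOXB1 to HOXB4 were named after their values were seen.

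**Figure D3:**
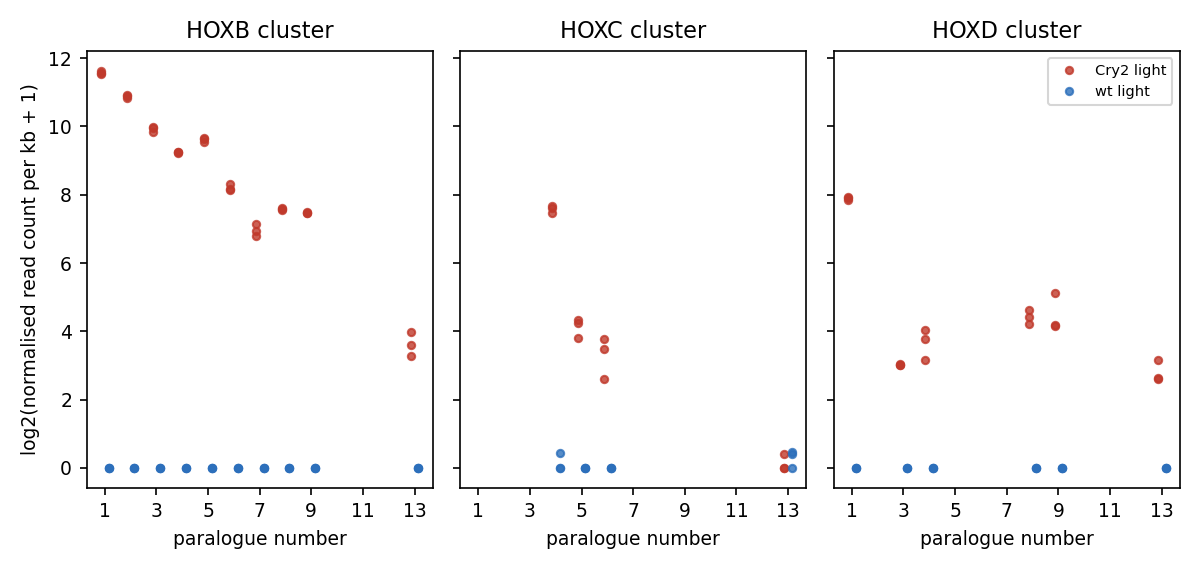
Normalised read count per kilobase of exon (log2 scale after adding 1) of the genes of the HOXB, HOXC and HOXD clusters in the table, by paralogue number, with a point for each of the 3 Cry2 light and the 3 wt light libraries. Cry2 light levels are highest at the low paralogue numbers of the HOXB cluster (3051 per kilobase for HOXB1), and the wt light points lie on or next to 0.

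The pluripotency genes were lower in 17 of 20 cases, each at least 2-fold, and higher in 3, with a median log2 difference of -2.57. In wt light the defining transcripts of embryonic stem cells were present, as the label says. SOX2 (chromosome 3, 181711924 to 181714436, plus strand) had 45.2, 34.0 and 36.4 in Cry2 light, against 8469, 9007 and 8631 in wt light. NANOG (chromosome 12, 7787794 to 7799141, plus strand) had 49.8, 64.0 and 39.0 in Cry2 light, against 4261, 4598 and 4097 in wt light. Both core factors were close to lost in Cry2 light (SOX2 226-fold lower, log2 difference -7.79 ± 0.09, limma adjusted p = 3.64e-17, and NANOG 84.8-fold lower, -6.40 ± 0.13, limma adjusted p = 4.34e-15).

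POU5F1, the third of the core factors (OCT4; chromosome 6, 31164337 to 31180731, minus strand), was kept at a much higher share, with 21572, 23319 and 22328 in Cry2 light, against 99460, 114563 and 108628 in wt light (4.80-fold lower, log2 difference -2.26 ± 0.07, limma adjusted p = 2.03e-13). FOXD3 and UTF1 had 1 read each over the Cry2 light libraries, against 563 ± 63.4 and 269 ± 88.3 in wt light. PODXL, which encodes the carrier of the TRA-1 surface antigens, was 38.1-fold lower (1737 ± 295 against 66172 ± 9534). Of the 3 members that were higher, SALL4 was 1.83-fold (13404 ± 341 against 7316 ± 724) and LIN28B 1.65-fold higher (8253 ± 590 against 4999 ± 698). SALL4 is also transcribed in early mesoderm.

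Naive pluripotency and germ cell genes were lower in 6 of 11 cases and higher in 3. DPPA3, a germ cell and naive marker, had no reads in Cry2 light, against 43.6, 65.7 and 67.1 in wt light (at least 67.8-fold lower), and TFCP2L1 was 35.7-fold lower (10.6 ± 3.10 against 379 ± 52.1). The members that were higher were TBX3, described above with mesoderm, KLF2 (63.9 ± 17.0 against 1.74 ± 1.05) and KLF5 (133 ± 8.18 against 48.5 ± 14.5). Of the DNA methylation enzymes, the de novo methyltransferase genes were lower and the other 5 of 7 higher. DNMT3B had 11712, 11295 and 10498 in Cry2 light, against 64770, 54359 and 65488 in wt light (5.51-fold lower), and DNMT3A was 2.03-fold lower (3377 ± 52.1 against 6843 ± 68.0). TET2, which oxidises methylcytosine, was 3.13-fold higher (422 ± 35.5 against 135 ± 44.0), and the maintenance enzyme DNMT1 1.28-fold higher (14415 ± 587 against 11295 ± 973).

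Epithelial junction and polarity genes were lower in 27 of 31 cases, 26 of them at least 2-fold, and higher in 2, with a median log2 difference of -2.73. CDH1, which encodes E-cadherin (chromosome 16, 68737225 to 68835548, plus strand), had 903, 980 and 784 in Cry2 light, against 12347, 10699 and 12267 in wt light (13.2-fold lower, log2 difference -3.73 ± 0.08, limma adjusted p = 6.96e-15). ESRP2, which directs epithelial splicing, had 78.7, 57.5 and 57.7 in Cry2 light, against 3136, 2724 and 3034 in wt light (45.9-fold lower). The claudin gene CLDN3 was 113-fold lower (5.94 ± 5.24 against 669 ± 87.5), the tight junction genes MARVELD3 101-fold (13.8 ± 1.85 against 1394 ± 89.1) and TJP3 92.4-fold (6.63 ± 2.81 against 613 ± 65.1), and the apical determinant CRB3 54.1-fold (10.3 ± 8.17 against 555 ± 54.0). DSP, which anchors desmosomes to intermediate filaments, was instead 4.18-fold higher, with 23239, 24450 and 22117 in Cry2 light, against 6465, 3885 and 6329 in wt light. The scaffold gene TJP1 (5546 ± 63.4 against 6705 ± 1402) and DSG2 (10056 ± 585 against 9544 ± 1899) did not pass, and TJP1 passed as lower with edgeR, with DESeq2, with quantile normalization and without wt light replicate 2. All 5 keratins were lower, 3 of them at least 2-fold, led by KRT7 (9.56 ± 6.48 against 553 ± 47.9, 57.9-fold).

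Mesenchymal genes were the counterpart: 16 of 18 were higher, 15 of them at least 2-fold, with a median log2 difference of 4.09. CDH2, which encodes N-cadherin (chromosome 18, 27950966 to 28177446, minus strand), had 21077, 19609 and 19795 in Cry2 light, against 2380, 1968 and 2362 in wt light (9.01-fold, log2 difference 3.18 ± 0.07, limma adjusted p = 1.45e-14). CDH11, a mesenchymal cadherin, had 31848, 31930 and 32313 in Cry2 light, against 376, 272 and 389 in wt light (92.6-fold). Among the repressors of CDH1, ZEB2 had 4941, 4932 and 4919 in Cry2 light, against 0, 4.76 and 4.80 in wt light, SNAI2 was 254-fold higher (1573 ± 66.5 against 6.19 ± 1.24) and ZEB1 67.8-fold higher (814 ± 56.8 against 12.01 ± 6.29). FOXC1, a factor of mesenchyme and paraxial mesoderm, stood at 8287 ± 281 with 3 reads over wt light. SNAI1 (17267 ± 577 against 472 ± 55.0) and the intermediate filament gene VIM (62036 ± 1180 against 2756 ± 371), named after their values were seen, were 36.6-fold and 22.5-fold higher. LOX (6.36 ± 5.46 against 37.2 ± 9.14) and S100A4 (275 ± 21.3 against 520 ± 117) were lower.

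Extracellular matrix genes were also affected. Of 20 collagens 15 were higher and 4 lower: COL3A1, a fibrillar collagen of connective tissue, had 1971, 2497 and 2094 in Cry2 light and no reads in wt light (at least 2607-fold), and COL5A1 was 41.6-fold (31872 ± 2220 against 765 ± 103) and COL1A2 8.96-fold higher (48218 ± 2543 against 5382 ± 237). COL14A1 was 3.58-fold (599 ± 38.3 against 2146 ± 317) and COL26A1 2.70-fold lower (2376 ± 175 against 6419 ± 155). Of 24 integrins and laminins 11 were higher and 12 lower. ITGA5, the fibronectin receptor subunit, was 12.7-fold higher (31432 ± 1340 against 2473 ± 144), while ITGA2, a collagen receptor subunit of epithelia, was 25.1-fold lower (10.5 ± 5.77 against 264 ± 73.7) and ITGB4, of hemidesmosomes, 8.45-fold lower (25.2 ± 10.5 against 212 ± 29.3). Their common partner ITGB1 did not pass (15619 ± 662 against 13703 ± 2750). Of 15 matrix proteases and inhibitors 10 were higher and 3 lower. The membrane protease MMP14 (24299 ± 1017 against 4040 ± 129) and the gelatinase MMP2 (23712 ± 910 against 4076 ± 257) were 6.02-fold and 5.82-fold higher, and the other gelatinase, MMP9, was 11.4-fold lower (33.5 ± 11.9 against 383 ± 41.1).

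Among migration and growth factor receptor genes, 3 receptors and a ligand of each differed in opposite directions. APLNR, the apelin receptor of migrating mesoderm (chromosome 11, 57233577 to 57237314, minus strand), had 145725, 147588 and 140726 in Cry2 light, against 24.5, 31.4 and 16.8 in wt light (5971-fold, log2 difference 12.53 ± 0.27, limma adjusted p = 1.01e-14). Its ligand gene APELA had 59.7, 29.2 and 31.9 in Cry2 light, against 1814, 2219 and 1725 in wt light (47.6-fold lower, log2 difference -5.60 ± 0.21, limma adjusted p = 3.50e-12). PDGFRA was 236-fold higher (4725 ± 348 against 20.0 ± 15.3) and its ligand gene PDGFA 11.9-fold lower (150 ± 12.1 against 1776 ± 56.3). CXCR4 was 281-fold higher, as given above, and its ligand gene CXCL12 4.76-fold lower (552 ± 51.4 against 2624 ± 96.7). APLN, the other APLNR ligand, was 1.73-fold lower (207 ± 7.50 against 359 ± 23.6), and PDGFC, another PDGFRA ligand, did not pass (69.8 ± 8.12 against 68.6 ± 7.03). The stem cell factor receptor KIT did not follow, being 12.6-fold lower (109 ± 14.3 against 1383 ± 319), and its ligand gene KITLG did not pass (299 ± 26.5 against 284 ± 76.1). The VEGF receptor genes KDR (4849 ± 206 against 4616 ± 774) and FLT1 (4073 ± 489 against 4622 ± 586) did not pass. In all 4 of 17 members were higher, 8 lower and 5 did not pass.

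BMP pathway genes were higher in 17 of 23 cases, 15 of them at least 2-fold, and lower in 4. BMP4, a ligand that induces mesoderm, had 15918, 15547 and 16407 in Cry2 light, against 126.3, 118.0 and 101.5 in wt light (138-fold, limma adjusted p = 8.28e-15). BMP2 was 48.0-fold higher (4469 ± 116 against 93.1 ± 15.6), and BMP5 had 132 ± 19.1 and no reads in wt light (at least 157-fold). BMP6 was 66.1-fold lower (2.34 ± 1.11 against 155 ± 14.2) and the receptor BMPR1A 1.95-fold lower (1825 ± 96.3 against 3550 ± 501). The homeobox targets MSX1 (16257 ± 536 against 7.72 ± 2.18) and MSX2 (1392 ± 113 against 11.1 ± 6.38) were 2106-fold and 125-fold higher. NOG, a BMP antagonist, did not pass (25.8 ± 4.61 against 9.66 ± 1.75).

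In the NODAL and TGF-beta list 5 of 15 were higher and 6 lower. LEFTY2, a secreted NODAL inhibitor, had 6.33, 1.62 and 0 in Cry2 light, against 678, 781 and 555 in wt light (253-fold lower, limma adjusted p = 7.75e-10), and LEFTY1 was 12.6-fold lower (41.9 ± 7.70 against 527 ± 56.7). The co-receptor TDGF1 was 7.30-fold lower (2768 ± 127 against 20222 ± 1563). FOXH1, which carries NODAL signals to DNA, was 2.87-fold higher (11086 ± 813 against 3862 ± 416) and TGFB1 12.3-fold higher (4329 ± 152 against 353 ± 77.6). In the FGF list 9 of 22 were higher and 7 lower. FGF17 stood at 7335 ± 440 against 4.28 ± 2.38 and FGF8 at 368 ± 51.7 against 20.2 ± 3.92, both streak ligands, while FGF2, the self-renewal factor of these cells, was 4.97-fold lower (583 ± 27.5 against 2897 ± 241). The ERK inhibitors SPRED2 (6075 ± 458 against 1277 ± 149) and SPRY4 (27673 ± 1210 against 7561 ± 855) were 4.76-fold and 3.66-fold higher, the ERK phosphatase gene DUSP6 1.37-fold lower (11491 ± 534 against 15690 ± 957), and FGFR1 did not pass (25294 ± 1241 against 25640 ± 1000).

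Notch genes were higher in 10 of 19 cases and lower in 5. The ligands of the segmentation clock and the JAG ligands lay on opposite sides. DLL3 had 27779, 30152 and 27751 in Cry2 light, against 626, 788 and 563 in wt light (43.4-fold), DLL1 was 24.4-fold higher (5660 ± 513 against 232 ± 32.1) and LFNG, which modifies Notch with sugar, 11.9-fold higher (13669 ± 543 against 1152 ± 58.7). JAG2 was 3.40-fold lower (169 ± 41.2 against 573 ± 58.4), JAG1 1.82-fold lower (672 ± 62.4 against 1220 ± 246) and the Notch target NRARP 6.43-fold lower (176 ± 11.8 against 1133 ± 48.3). Of the tested HES and HEY genes in the list, HES1, HES7, HEY2 and HEYL were higher, and HES4 and HEY1 did not pass. In the retinoic acid list 8 of 14 were higher and 5 lower. ALDH1A2, the enzyme that makes retinoic acid in mesoderm, had 11720, 10327 and 10681 in Cry2 light, against 11.5, 20.0 and 5.59 in wt light (883-fold), and the retinol uptake gene STRA6 was 25.6-fold higher (15212 ± 912 against 595 ± 59.0). The binding proteins CRABP2 and CRABP1 went apart, CRABP2 being 11.03-fold higher (24317 ± 897 against 2205 ± 301) and CRABP1 6.78-fold lower (1038 ± 35.6 against 7031 ± 942). Of 17 Eph receptors and ephrins 9 were higher and 6 lower. EPHA4, which sets somite borders, was 26.3-fold higher (8735 ± 449 against 332 ± 22.9) and EPHA1 9.30-fold lower (1246 ± 113 against 11594 ± 318).

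Genes of other fates gave small lists. Of 9 testable neural ectoderm genes 3 were higher and 5 lower: POU3F1, a factor of primed epiblast and neural cells, had 1.81, 1.62 and 2.66 in Cry2 light, against 876, 862 and 892 in wt light (432-fold lower), SOX21 had no reads in Cry2 light (at least 87.2-fold lower) and ZIC5 was 4.78-fold lower. The defining neural factors PAX6 and SOX1 were below the minimum for testing, with means of at most 3.89 in either group. Of 6 neural crest genes 2 were higher and 3 lower, of 7 amnion, surface ectoderm and trophoblast genes 5 and 2, and of 10 endothelium and blood genes 6 and 2. Members below the minimum for testing are left out of these counts. GATA3, of amnion and trophoblast, stood at 140 ± 23.5 against 5.25 ± 3.77, while GABRP, an amnion marker, was 63.0-fold lower (8.17 ± 5.66 against 515 ± 50.2). LMO2, a factor of blood and endothelium, was 80.2-fold higher (5183 ± 302 against 64.6 ± 12.2), but CDH5, the cadherin that defines endothelium, was lower (2.05 ± 2.07 against 20.5 ± 7.85).

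**Figure D4:**
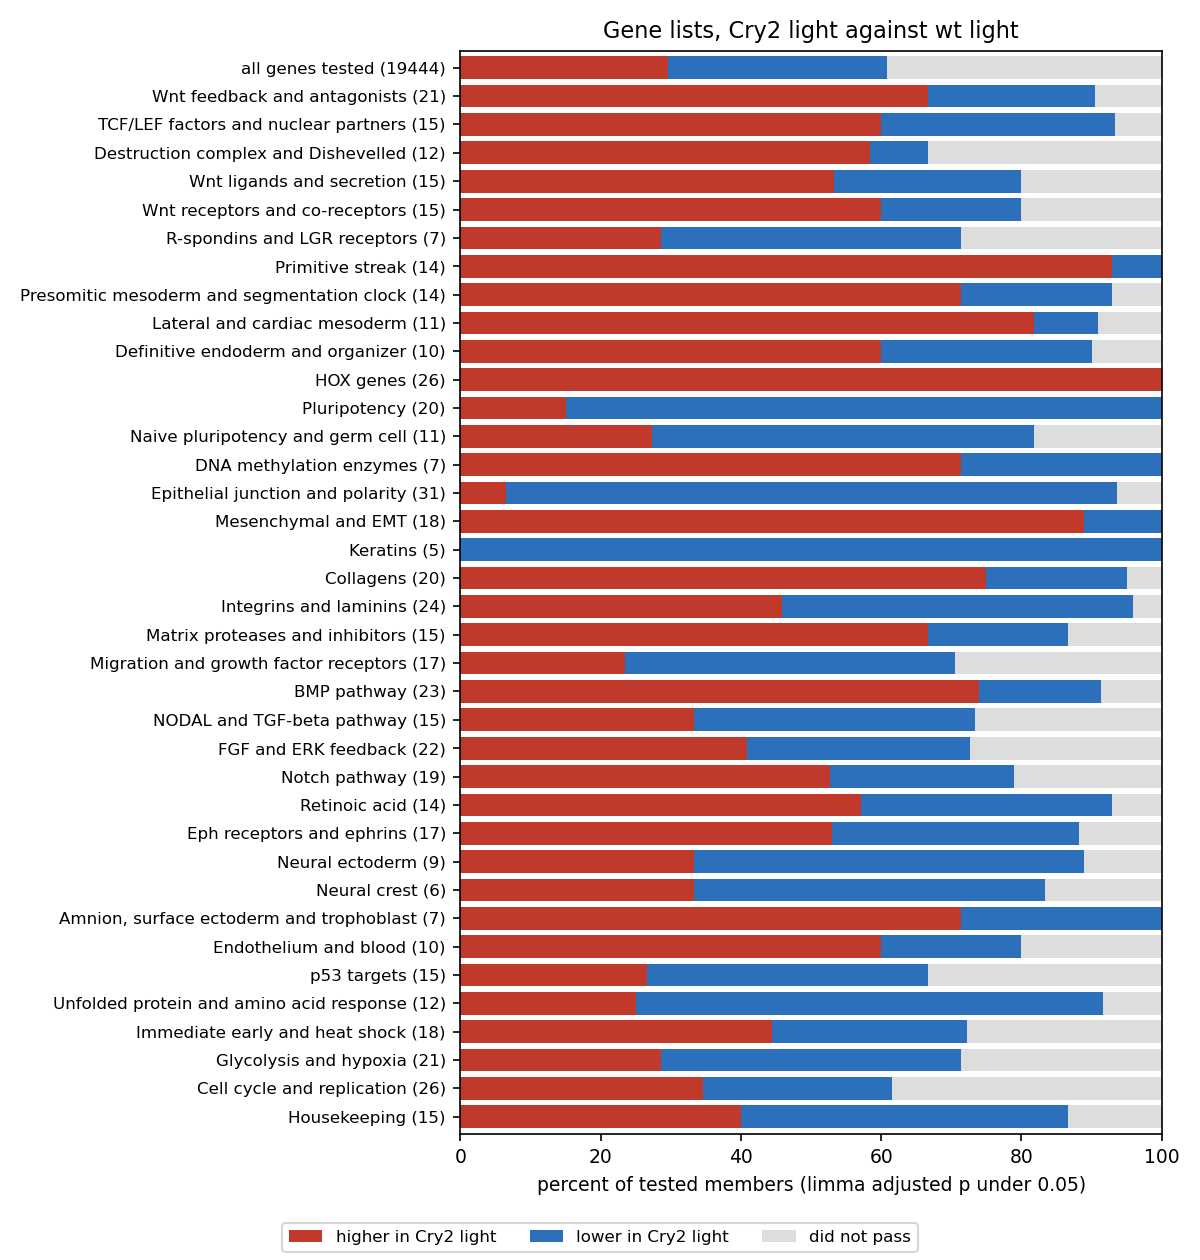
Percent of the tested members of each gene list (number tested in brackets) that were higher in Cry2 light, lower in Cry2 light, or did not pass by limma at an adjusted p under 0.05, with all tested genes in the top row. Of the streak genes 13 of 14 were higher, and 27 of 31 epithelial junction genes and 17 of 20 pluripotency genes lower, against 29.6% higher and 31.3% lower for all tested genes. Most HOX genes had no read in wt light, so those shown passed the minimum through Cry2 light. Some members of other lists, such as EVX1 of the streak, passed it the same way, so nothing is read from their counts of higher members.

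Of 15 p53 targets 4 were higher, 6 lower and 5 did not pass, with a median log2 difference of -0.03. CDKN1A, the p21 inhibitor of the cell cycle, had 913, 933 and 781 in Cry2 light, against 844, 694 and 758 in wt light, and the groups overlapped (limma adjusted p = 0.116). MDM2 (1617 ± 167 against 1651 ± 102) and ZMAT3 (633 ± 24.8 against 576 ± 66.6) did not pass either. Of 12 genes of the unfolded protein and amino acid response 3 were higher and 8 lower, with a median log2 difference of -0.71, among them CHAC1, an enzyme that breaks down glutathione (677 ± 17.5 against 3344 ± 171, 4.94-fold lower). Of 18 immediate early and heat shock genes 8 were higher, 5 lower and 5 did not pass. EGR1, an early response gene, had 5203, 5327 and 5145 in Cry2 light, against 127.9, 138.0 and 115.1 in wt light (41.2-fold), and IER3 was 12.2-fold higher (21559 ± 648 against 1762 ± 155).

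Glycolysis and hypoxia genes were higher in 6 of 21 cases and lower in 9. PDK1, a kinase that keeps pyruvate out of mitochondria, was 8.54-fold higher (13374 ± 394 against 1566 ± 171), whereas ADM (44.5 ± 22.8 against 2228 ± 312) and VEGFA (1008 ± 81.2 against 2446 ± 202), which are known targets of hypoxia signalling as is PDK1, were 50.03-fold and 2.43-fold lower. Of 26 cell cycle and replication genes 9 were higher, 7 lower and 10 did not pass, with 1 in each direction reaching 2-fold: the cyclin-dependent kinase gene CDK6 was 3.12-fold higher (3486 ± 215 against 1117 ± 138) and MYC, a Wnt target in intestinal epithelium, 2.44-fold lower (1626 ± 109 against 3968 ± 207). CDK1 (6393 ± 613 against 6462 ± 71.9) and TOP2A (24558 ± 1506 against 23628 ± 4541) did not pass. Among 15 housekeeping genes 6 were higher and 7 lower, none by 2-fold, and ACTB did not pass (199601 ± 2557 against 211170 ± 17272).

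Some of the strongest decreases lay outside these lists. NPTX1, a secreted neuronal pentraxin (chromosome 17, 80467148 to 80477843, minus strand), had 1 read over the Cry2 light libraries, against 1022, 1014 and 663 in wt light (log2 difference -9.50 ± 0.24, limma adjusted p = 5.90e-14). RIPOR2, an inhibitor of RhoA, had 4.52, 0 and 0 in Cry2 light, against 1151, 1222 and 1104 in wt light (768-fold lower). GRIA4 (2 reads over Cry2 light against a mean of 648 ± 162) and CR2 (1 read against 404 ± 75.2), a glutamate receptor subunit and a complement receptor, were also close to silent in Cry2 light. IDO1, an enzyme that breaks down tryptophan, was 378-fold lower (4.73 ± 3.27 against 1788 ± 135), and the homeobox gene HMX2 513-fold lower (1.46 ± 1.04 against 749 ± 26.9). CYP2B6 had no reads in Cry2 light (at least 278-fold lower, against 241 ± 14.5).

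The same lines in the dark differed much less. Of the 19444 genes 700 (3.6%) passed between Cry2 dark and wt dark, 441 (2.27%) higher and 259 (1.33%) lower. The dark libraries were shallower (28237578 to 34291124 reads) than the light ones. Their RNA integrity number was 7.6 in Cry2 dark replicate 3, and 33.73% of bases were G or C in wt dark replicate 1. Their part in these counts was not tested beyond leaving each library out. These counts moved by over 1.5 times when a library was left out of the joint fit, to 942 and 786 without wt light replicate 2, and to between 211 and 280 higher and between 104 and 168 lower without any 1 dark library. A test of the difference itself, that is, the genotype difference in light minus that in dark, passed in 9303 genes (47.8%), 4433 (22.8%) more positive and 4870 (25.0%) more negative in light. The sign is kept, so that a gene further below wt in light than in dark counts as more negative. It passed as more positive for 11 of 14 streak genes, 26 HOX genes, 13 of 21 Wnt feedback genes and 14 of 18 mesenchymal genes. In these lists 1 streak gene, 5 Wnt feedback genes and 1 mesenchymal gene were more negative. Of 20 pluripotency genes 17 were more negative and 3 more positive, and of 31 epithelial genes 27 and 2. Most of the HOX genes had no read in wt light and passed the minimum through Cry2 light, so nothing is read from their count. Some streak, Wnt feedback and mesenchymal genes, such as EVX1, DKK1 and FOXC1, passed it the same way. Nothing is read from the counts of more positive genes in these lists either. In the dark, AXIN2 averaged 648 in Cry2 and 612 in wt, TBXT 5.70 in Cry2 and 11.7 in wt, and SOX2 9124 in Cry2 and 9301 in wt. MSGN1 had no reads in either.

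Some genotype differences were present without light as well. Of the 700 genes called in the dark, 373 were called in the same direction in light, which is 53.3% of the dark calls and 3.15% of the light calls. Of the genes higher in the dark 49.9% were higher in light, while 29.6% of all tested genes were. Of the genes lower in the dark 59.1% were lower in light, while 31.3% of all tested genes were. PUS7L, an RNA pseudouridine synthase gene, stood at 273 ± 8.23 in Cry2 light and had no reads in wt light, and in the dark it stood at 379 ± 59.0 in Cry2 and had no reads in wt. Its neighbour IRAK4, which encodes a kinase acting below Toll-like receptors, had 180 ± 27.4 in Cry2 light and no reads in wt light. THUMPD3, an RNA methyltransferase gene, was lower at 10.7 ± 0.811 in Cry2 light against 1537 ± 100 in wt light, and at 9.48 ± 8.08 in Cry2 dark against 1575 ± 39.9 in wt dark. The zinc finger genes ZNF736 and ZNF583 had no reads in wt light, and ZNF502 had none in Cry2 light. For these genes the difference seen in light was present in the dark too.

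In 203 genes (29% of the dark calls, 1.72% of the light calls) the direction was opposite in light: 150 were higher in Cry2 in the dark and lower in light, and 53 the reverse. These are 34.0% of the genes higher in the dark, while 31.3% of all tested genes were lower in light, and 20.5% of the genes lower in the dark, while 29.6% of all were higher in light, so nothing is read from the number. ECEL1P1, a pseudogene, had no reads in Cry2 light, against 30.8 ± 16.7 in wt light, and 187 ± 16.3 in Cry2 dark against 58.6 ± 13.9 in wt dark. GRPR, the receptor of gastrin-releasing peptide, stood at 24.6 ± 11.5 in Cry2 light against 169 ± 62.6 in wt light, and at 717 ± 28.8 in Cry2 dark against 234 ± 14.7 in wt dark. SLC40A1, the iron exporter, stood at 81.8 ± 3.47 in Cry2 light against 3.18 ± 1.95 in wt light, and at 1.84 ± 0.671 in Cry2 dark against 9.34 ± 2.84 in wt dark. Of the p53 targets 12 of 15 were higher in Cry2 dark, against 2.27% of all tested genes, as were 5 of 12 unfolded protein and amino acid response genes and 6 of 20 collagen genes. These list counts are from the main fit, and the dark counts over all genes moved when a library was left out, as given above. The genotype difference of the p53 targets was more negative in light than in dark for 10 of 15 and more positive for 3, and the groups overlapped in light for CDKN1A and MDM2.

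**Figure D5:**
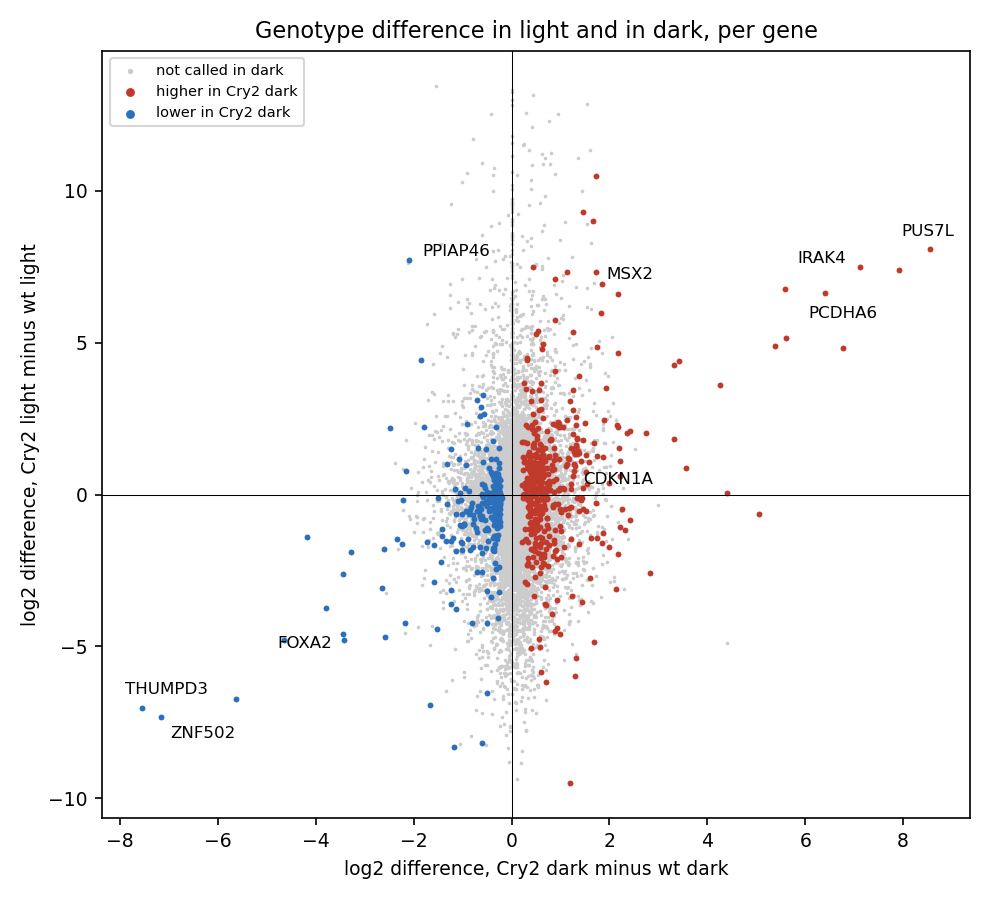
Log2 difference between Cry2 and wt monocultures for each tested gene, in the dark (horizontal axis) and in light (vertical axis), with genes called in the dark in colour. PUS7L and IRAK4 lie at the upper right and THUMPD3 and ZNF502 at the lower left, with log2 differences of 8.10, 7.49, -7.04 and -7.34 in light, while most genes with large differences in light lie near 0 on the horizontal axis.

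Between mCherry and GFP cells sorted from illuminated co-cultures, 11200 of 20322 genes (55.1%) passed, 5547 (27.3%) higher and 5653 (27.8%) lower in mCherry cells, 5543 of them (27.3%) with at least 2-fold. Of the genes at least 2-fold different in both cultures, 4308 had the same direction, which is 78.7% of those in monoculture and 77.7% of those in co-culture, and 3 had the opposite. All 26 HOX genes were higher in mCherry cells, as were 11 of 14 streak genes, and 17 of 20 pluripotency and 29 of 31 epithelial genes were lower. The HOX genes counted are those that passed the minimum in monoculture, most of them through Cry2 light, so nothing is read from their count. The same holds for the streak count, since members such as EVX1 passed the minimum in monoculture through Cry2 light. The genotype difference itself differed between the cultures, by a fit over all 24 libraries, in 1061 genes (5.22%), 599 (2.95%) more positive and 462 (2.27%) more negative in monoculture. The 12 light libraries fitted alone gave 190 and 101. The counts of the fit over all 24 libraries became 2041 and 2437 without mCherry light library a, and 348 and 257 without wt light replicate 2.

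The lists with most such genes were the BMP pathway, with 12 of 23 more positive in monoculture and 1 more negative, and the streak, with 9 of 14 more positive and none more negative. In the 12 light libraries alone they were 11 and 1 of the BMP pathway and 8 and 0 of the streak. EOMES averaged 4862 ± 130 in Cry2 light and 5.90 ± 2.37 in wt light, against 5786 ± 581 in mCherry light and 244 ± 32.8 in GFP light (difference of log2 differences 4.96, limma adjusted p = 0.000135). SP5 averaged 11400 ± 475 in Cry2 light and 6.88 ± 5.48 in wt light, against 13841 ± 4947 in mCherry light and 141 ± 20.9 in GFP light (4.35, limma adjusted p = 0.0182, and 0.053 without mCherry light library c). For both genes the mean of GFP light lay more than 10-fold above that of wt light. Co-culture and the sorting that came with it cannot be told apart.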

How the data were processed

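Messenger RNA libraries made with a stranded kit were sequenced, and the processing notes name FastQC, cutadapt, Bowtie2, STAR, HTSeq and DESeq. Those notes give GRCh38 while the deposited sample table names hg19, so coordinates here are GENCODE 29 positions on GRCh38, looked up by Ensembl ID. No source read here says whether counting used strand, which leaves genes that overlap or lie antisense uncertain. The authors' deposited values are a signal, reads per gene divided by a factor for each library; 100.0% of them became whole reads (within 0.01) once that factor was recovered. Total reads (a count), GC content and alignment (percent) and the RNA integrity score come from the authors' sample table. The genotype tags of the monocultures name the opposite genotype from their titles; the titles were used, and reads of the construct fell where the titles put them. Co-culture columns were matched by group and not by replicate. The table held 28297 Ensembl genes, 27908 with a reference symbol, and 4 construct features.

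Genes reaching 10 in 3 or more of the 12 monoculture libraries were tested with limma 3.58.1 (R 4.3.3) on log2(value + 1), in a fit of 4 groups with a mean-variance trend and Benjamini-Hochberg adjustment; folds are ratios of group means, and log2 differences are on the log2(value + 1) scale, which understates changes of low genes. Where a group had no reads, a fold is a bound against 3 reads over the group, which covers counting error only, and with 1 to 3 reads none is given. The comparison with co-culture used a fit of all 24 libraries and 8 groups. Recovered reads were also tested with edgeR 4.0.16 and DESeq2 1.42.0. The limma step was tested on simulated data. Named genes are the 12 largest changes in each direction with a mean of at least 50, up to 5 per list and direction, 8 or 6 per direction by dark and co-culture differences, and a fixed set of 11. The gene lists and members were chosen with earlier results of these data known. Same-numbered replicates did not deviate together. Results that rest on items withheld for evaluation are not reported here.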

Additional observations from a re-analysis of the deposited data

Results flagged for a closer look

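The 16 genes with a mean of at least 50 in a light group whose Cry2 minus wt difference in illuminated monoculture differed most from the mCherry minus GFP difference in illuminated co-culture, by limma over 24 libraries, are given with their means (SD, n = 3) and the difference of the log2 differences. Co-culture, sorting and library cannot be told apart here.

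For several genes the GFP cells lay above wt light. LINC02593 (6.11) stood at 54.1 ± 4.49 in Cry2 light with 2 reads over wt light, and at 33.2 ± 6.66 in mCherry light against 58.6 ± 17.7 in GFP light. CDH6, a cadherin gene (5.38), stood at 23.0 ± 5.31 in Cry2 light against 26.1 ± 11.6 in wt light, and at 8.22 ± 3.32 in mCherry light against 399 ± 46.0 in GFP light. SAMD11 (5.36) stood at 215 ± 43.2 in Cry2 light against 4.18 ± 2.85 in wt light, and at 213 ± 67.6 in mCherry light against 184 ± 28.1 in GFP light. PCAT14 (5.01) stood at 2540 ± 321 in Cry2 light against 14.9 ± 1.72 in wt light, and at 1173 ± 359 in mCherry light against 242 ± 92.2 in GFP light. EOMES (4.96) and SP5 (4.35) are described above. HAGLR, an antisense transcript beside the HOXD genes (4.44), stood at 1776 ± 105 in Cry2 light with 2 reads over wt light, and at 1692 ± 4.52 in mCherry light against 29.4 ± 9.14 in GFP light. MSX2 (4.30) stood at 1392 ± 113 in Cry2 light against 11.1 ± 6.38 in wt light, and at 1174 ± 357 in mCherry light against 178 ± 17.0 in GFP light.

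For the other genes the GFP cells lay below wt light. IL17C, a cytokine gene (-6.50), had 4 reads over Cry2 light against a mean of 116 ± 26.0 in wt light, and stood at 1.60 ± 0.779 in mCherry light against 1.13 ± 0.996 in GFP light. NPTX1 (-5.42) had 1 read over Cry2 light against 899 ± 205 in wt light, and stood at 1.17 ± 2.02 in mCherry light against 29.1 ± 12.6 in GFP light. BRINP2 (-4.70) stood at 3.10 ± 2.69 in Cry2 light against 63.8 ± 13.4 in wt light, and at 4.59 ± 2.58 in mCherry light against 3.89 ± 3.78 in GFP light. CUZD1 (-4.56) stood at 14.5 ± 2.53 in Cry2 light against 892 ± 125 in wt light, and at 24.3 ± 6.77 in mCherry light against 64.0 ± 27.7 in GFP light. FOXJ1, a regulator of motile cilia (-4.18), stood at 13.2 ± 1.30 in Cry2 light against 467 ± 63.0 in wt light, and at 36.9 ± 6.75 in mCherry light against 67.3 ± 12.5 in GFP light. BNC1 (-3.96) stood at 16.01 ± 6.55 in Cry2 light against 53.2 ± 14.98 in wt light, and at 21.3 ± 4.42 in mCherry light against 4.21 ± 3.11 in GFP light. ATP10B (-3.80) had no reads in Cry2 light against 58.6 ± 16.4 in wt light, and none in mCherry light against 4.03 ± 3.88 in GFP light. The long non-coding RNA gene ENSG00000248540 (-3.43) stood at 108 ± 25.5 in Cry2 light against 54.0 ± 5.22 in wt light, and at 121 ± 27.2 in mCherry light against 6.27 ± 4.69 in GFP light.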

How the results depend on the processing

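The alternatives tried were a pseudocount of 0.5 or 5, no filter, a filter at 50, quantile normalization and the replicate block. Recovered reads were tested with edgeR (TMM) and DESeq2, the 6 light libraries were fitted alone, and each of these 6 was left out. Across all of these the light counts stayed within 1.5 times the main ones: 4895 to 6093 higher, 5251 to 6326 lower. Dark libraries were left out in turn only for the dark counts and the difference between light and dark. With the replicate number as a block, 5744 genes were higher and 6056 lower in Cry2 light; the same-numbered light libraries correlated by 0.038, -0.001 and -0.037 in their deviations from the group means, so the numbers were not taken as pairs. Between Cry2 dark and wt dark, DESeq2 called 776 higher and 458 lower, and leaving out a library gave 211 to 942 higher and 104 to 786 lower. For the difference between mono- and co-culture, the 12 light libraries fitted alone gave 190 more positive and 101 more negative, DESeq2 gave 880 more negative, and leaving out a library gave 337 to 2041 more positive and 257 to 2437 more negative. The cause was not tested. No named gene turned its direction. Those whose call was lost under at least 1 alternative were APC, B2M, DLL4, EEF1A1, FZD3, HSP90AA1, HSPA1A, HSPA1B, NODAL, POLR2A, STMN2, TET1 and WNT7B. Genes with few reads in a group have fold changes that depend on the pseudocount, so bounds are given where a group had none.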

Other observations

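By the reference's gene classes, 1856 of 14946 tested protein-coding genes were at least 2-fold higher in Cry2 light and 2362 at least 2-fold lower. Of 1131 long intergenic non-coding RNA genes 171 were higher and 276 lower, and of 1178 antisense genes 137 were higher and 218 lower, by the same 2-fold measure. Over all tested genes 12.2% were at least 2-fold higher and 15.9% at least 2-fold lower. A difference between the classes was not tested. The 100 genes with the highest values held 16.6% to 17.6% of all assigned reads in Cry2 light libraries and 18.7% to 21.1% in wt light libraries, with the highest share in wt light replicate 2.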
